A study of Mus musculus with 18 samples.

Results

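The inserts described here are those numbered 9001 to 12000 in a pool of 16461 DNA sequences that carry no spliced form in the RNA count table and had a mean of 20 or more reads over the 9 genomic DNA (gDNA) libraries. Of the 3000 inserts in that number range, 202 had a spliced form and 253 without one fell under the gDNA minimum, which left 2545. They were set against the other 10692 inserts without a spliced form that passed the same minimum. A spliced form was listed for 6.73% of the inserts in the range, against 16.4% of those outside it, and 9.04% of the unspliced inserts in the range fell under the gDNA minimum, against 5.04% outside. Members were thus chosen by number, by the missing spliced form and by gDNA reads, and the range itself was selected on earlier results of these data, among them RNA levels, silent shares and siRNA responses. The labels and tables used here give no insert sequence and no meaning to the numbers or to the order of the inserts, no paper was used, and so the range is a set of numbers and not a known class of sequence.

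INSERT-seq reads out how a short inserted sequence affects the RNA made across a single chromosomal locus. The cells were female CAST/129 hybrid embryonic stem cells from mouse. All groups carried the same alleles: Oct4C::TagBFP2(129), the pool as Oct4ua157::INSERT-seqlibrary(129) and a fluorescent reporter as Oct4ua172::mKate2(129), where ua stands for the upstream antisense RNA of Oct4. The 3 siRNA groups of 3 biological replicate cultures were siWDR82, siZC3H4 and the non-targeting siNT, each culture giving an RNA and a gDNA library. The labels give 30 nM siRNA throughout, except 31 and 32 nM for siWDR82 replicates 2 and 3, for which the treatment protocol gives 30 nM. The residual level of WDR82 or ZC3H4 was not analysed here, since reads come from the insert locus alone.

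Upstream antisense RNAs are short, unstable noncoding transcripts that RNA polymerase II makes in the direction away from a gene at the same promoter. The Restrictor complex holds back such early, mostly noncoding transcription. ZC3H4 is a zinc finger protein that forms the core of Restrictor together with WDR82, a WD40 repeat protein that also belongs to other complexes, among them one that methylates histone H3.

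RNA libraries held 32173068 to 52840375 insert reads and gDNA libraries 4584881 to 11510602. The level of an insert in a culture is log2 of its RNA CPM (counts scaled to the library total) plus 0.5 minus the same for gDNA, so 0 means that its share of RNA equals its share of gDNA. Libraries were made by PCR without stated molecular identifiers, so a read is not a molecule. A value of 0 reads need not mean that an insert made no RNA. The share of gDNA reads taken by the inserts of the range varied between libraries. It was 13.6%, 13.8% and 13.3% in siWDR82 cultures and 14.7%, 15.3% and 13.7% in siZC3H4 cultures, against 14.6%, 13.0% and 12.2% in siNT cultures. Among siNT cultures replicate 1 was thus the highest, and the main differences from siNT are also given without single siNT cultures.

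Inserts of the range made little RNA for their gDNA in siNT cultures. The median level was -2.29, -1.86 and -1.79 in siNT replicates 1 to 3, against -0.74, -0.71 and -0.75 for the other unspliced inserts. The difference was -1.24 ± 0.27 on the log2 scale (SD, n = 3 cultures), a level 2.37-fold lower, and the culture medians of the range and of the others did not overlap. Without siNT replicate 1 it was -1.09. As shares of all reads, the 2545 inserts took 5.09%, 5.20% and 4.81% of RNA reads in siNT against 14.6%, 13.0% and 12.2% of gDNA reads, whereas for the other unspliced inserts the RNA and gDNA shares were close (75.9%, 77.1% and 77.0% of RNA against 72.5% to 75.8% of gDNA).

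The range also lay low in most of its width and not only at its centre. In siNT the lower quartile was -3.24 ± 0.35 and the upper quartile -0.85 ± 0.20 (SD, n = 3 cultures). When a siNT culture was used to sort all unspliced inserts into 5 equal groups, 33.3% of the range's inserts were in the lowest group and 7.18% in the highest, against 16.8% and 23.05% of the others (means over the 3 siNT cultures used in turn).

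Per insert, edgeR's quasi-likelihood test over all 15484 inserts with the gDNA minimum compared RNA with gDNA in siNT (Benjamini-Hochberg adjusted p under 0.05). Of the 2545 inserts of the range, 1155 (45.4%) lay below the scaled average of the libraries, against 26.9% of all inserts fitted, and 37 (1.45%) lay above it, against 12.3% of all. Among the other unspliced inserts 25.1% lay below and 12.3% above. With culture as a block, which pairs the RNA and gDNA of a culture, 1352 lay below, against 33.2% of all, and 53 above, against 15.7%. Since the range was picked with these levels known, the counts describe it and are no test of it.

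The insert at the median of the range, sequence_11594, had levels of -1.85, -2.49 and -1.84 in siNT. Its RNA reads were 567, 351 and 961 over 544, 564 and 879 gDNA reads. With siWDR82 its levels were -2.22, -1.78 and -1.77, which overlap those in siNT, and the fitted change was -0.21 (SE 0.69, edgeR adjusted p = 0.96). The insert with the highest mean siNT level, sequence_11091, had 325, 557 and 647 RNA reads over only 9, 0 and 1 gDNA reads in siNT. It met the gDNA minimum through 186 and 130 reads in siZC3H4 replicates 1 and 2, and had 0 in siZC3H4 replicate 3, so its siNT levels of 2.60, 4.82 and 4.65 rest on almost no gDNA.

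Silent inserts, those with 0 RNA reads in a culture, were commoner in the range than among the other unspliced inserts. They made up 14.6%, 13.6% and 11.2% of its inserts in the 3 siNT cultures, against 6.87%, 6.70% and 5.31% of the other unspliced inserts, a difference of 6.82 ± 0.91 percentage points (SD, n = 3). The range had fewer gDNA reads per insert, with siNT medians of 445, 365 and 362 reads against 599, 586 and 594. Compared within 20 equal bins of gDNA count, the difference in silent share was 3.22 ± 0.62 points, while the difference in level was -1.02 ± 0.19. The excess of silent inserts was thus smaller at equal gDNA reads, and the lower level was nearly as large.

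Silence tracked representation. In the lowest of 5 gDNA groups, with means of 20 to 178 reads, 35.7% ± 3.4 of the range's inserts were silent in siNT (SD, n = 3), against 27.9% ± 2.8 of the others. In the middle group the shares were 3.39% ± 0.56 and 1.04% ± 0.22, and in the top group 0.113% ± 0.20 and 0.0567% ± 0.025. The range was below the others in level in each of the 5 gDNA groups in siNT, from -1.87 against -1.37 in the lowest to -1.74 against -0.16 in the highest, so the gap was wider among well-represented inserts.

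Fewer inserts of the range were silent after depletion of either subunit. The silent share was 5.89%, 6.37% and 5.34% in siWDR82 cultures, a difference of -7.24 ± 0.51 points from the siNT mean of 13.1%. It was 5.58%, 6.29% and 6.88% in siZC3H4 cultures, a difference of -6.86 ± 0.65 points. Every siWDR82 and siZC3H4 culture had a lower silent share than every siNT culture. The other unspliced inserts had lower shares throughout, with 2.92%, 2.80% and 2.99% silent in siWDR82 and 2.54%, 3.43% and 3.19% in siZC3H4, against the siNT shares above.

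Of the range's inserts, 95 (3.73%) had 0 RNA reads in all 3 siNT cultures, against 184 (1.72%) of the others. Of these 95, 25 (26.3%) had RNA reads in all 3 siWDR82 cultures and 20 (21.1%) in all 3 siZC3H4 cultures. Among the 184 others it was 39 (21.2%) and 37 (20.1%), shares near those of the range. In the other direction, 38 (1.49%) were silent in all 3 siWDR82 cultures, against 77 (0.720%) of the others. Of the 38, 1 had reads in all 3 siNT cultures. In all 3 siZC3H4 cultures 43 (1.69%) were silent, against 102 (0.954%) of the others. Of the 43, 0 had reads in all 3 siNT cultures. Among the 95 silent in siNT, the insert with the most siNT gDNA was sequence_11062, with 0 RNA reads over 141, 401 and 591 gDNA reads. It had 0, 7 and 70 RNA reads over 104, 131 and 127 gDNA reads with siWDR82. Pooled over the cultures, with siNT put at 3 reads, this is 42.3-fold more RNA per gDNA, a value that leaves out the spread between cultures. Its siWDR82 levels of -4.73, -5.26 and -3.65 overlapped the siNT levels of -4.67, -6.19 and -6.71. Most of its siWDR82 RNA reads came from a single culture, and the insert did not pass the threshold (edgeR adjusted p = 0.163).

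Median levels of the range were higher with both siRNAs than with siNT in every culture. They were -1.25, -1.28 and -1.14 with siWDR82 and -1.53, -1.47 and -1.40 with siZC3H4, all above the 3 siNT medians. For the other unspliced inserts the siWDR82 medians were -0.34, -0.35 and -0.33 and the siZC3H4 medians -0.37, -0.27 and -0.36. The range minus the others was -0.88 ± 0.064 with siWDR82 and -1.13 ± 0.083 with siZC3H4 (SD, n = 3), a gap narrower than in siNT for siWDR82 and within the siNT spread for siZC3H4.

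The median change per insert against the siNT mean was 0.68, 0.69 and 0.81 in siWDR82 cultures for the range, against 0.38, 0.41 and 0.42 for the others. The difference was 0.32 ± 0.058 (SD, n = 3). With siZC3H4 the changes were 0.49, 0.60 and 0.57, against 0.41, 0.45 and 0.37, a difference of 0.15 ± 0.060. These differences have to be read against siNT itself. Each siNT culture set against the mean of the other siNT cultures gave differences between range and others of -0.34, 0.14 and 0.30, as large as those of the knockdowns. Without siNT replicate 1 the difference was 0.22 for siWDR82 and 0.050 for siZC3H4.

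How far all levels moved depended on the scaling. A scaling changes 1 factor per library and so shifts all inserts nearly alike. The gap between the range and the others therefore could not follow it, and its steadiness is no result. The median fitted change over all inserts with siWDR82 was 0.066 with TMM factors, 0.34 with library totals and 1.34 with RNA scaled to the spike-ins. The range had 0.42, 0.70 and 1.70 under the same scalings and the others 0.09, 0.36 and 1.37. With siZC3H4 the values over all inserts were 0.063, 0.32 and 1.02, those of the range 0.29, 0.54 and 1.23, and those of the others 0.11, 0.37 and 1.07. A change of model did move the gap. With culture as a block the range had 0.66 and the others 0.17 with siWDR82, and 0.46 and 0.18 with siZC3H4.

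At matched siNT level the mean difference in change was near 0, with stretches of the range on either side of it. Each siNT culture in turn sorted the inserts into 20 equal bins, with the change computed from the remaining siNT cultures, which keeps the noise of the sorting culture out. The change of the range minus that of the others was then 0.015 ± 0.049 with siWDR82 and -0.10 ± 0.080 with siZC3H4 (SD, n = 3), and the spread of the siNT cultures treated alike was 0.28. Without siNT replicate 1 the values were -0.096 and -0.23, and without siNT replicate 2 they were 0.093 and -0.031, so the value for siWDR82 changed sign with the siNT cultures used.

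The change was smaller at higher siNT level, in the range and in the others. With siWDR82 the range's inserts changed by 1.04, 0.83, 0.57, 0.43 and 0.09 from the lowest to the highest of 5 siNT level groups, and the others by 1.07, 0.90, 0.55, 0.23 and -0.18. With siZC3H4 the range changed by 0.83, 0.67, 0.45, 0.30 and -0.14, and the others by 0.91, 0.78, 0.54, 0.30 and -0.035. In the lowest siNT group the range was below the others by less than the SD of either for siWDR82. It was above them in the upper 2 groups for siWDR82 by more than those SDs, where it had few inserts (128 to 226 in the highest group, depending on the culture that sorted them) and where the siNT cultures themselves had an SD of 0.31 and 0.84. How far the larger share of low inserts goes with the larger overall change was not tested beyond the matched values.

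Few inserts passed the test on their own. With siWDR82, 23 of the 2545 inserts rose (0.904%), against 0.581% of all inserts fitted, and 0 fell, against 0.11% of all (edgeR quasi-likelihood, adjusted p under 0.05). With siZC3H4, 10 rose (0.393%), against 0.323% of all, and 0 fell, against 0.0258%. Both shares of risers are near those of all inserts. Without adjustment, 271 inserts (10.6%) had p under 0.05 with siWDR82, in either direction, against 12.8% of all, and 255 (10.0%) with siZC3H4, against 9.36%. DESeq2 called 83 risers, against 2.18% of all, and 4 fallers, against 1.15%, with siWDR82. With siZC3H4 it called 61 risers, against 1.52%, and 6 fallers, against 0.389%.

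The count for siWDR82 moved with the model. With culture as a block 49 inserts rose, against 1.44% of all inserts, and 4 fell, against 1.67% of all, and 21 of the 23 risers were called in both models. For siZC3H4 the block gave 11 risers, against 0.342% of all, and 0 fallers, against 0.0904%, and 8 risers were called in both. Leaving out 1 of the siWDR82 cultures left 7, 11 and 4 calls with siWDR82 (without replicate 1, 2 and 3 in that order). The shares of all inserts called were 0.161%, 0.187% and 0.084%. Leaving out 1 of the siNT cultures gave 46, 58 and 70, against 1.38%, 1.29% and 1.65% of all. Each time 1 of them fell, against 0.368%, 0.142% and 0.174% of all. For siZC3H4, leaving out 1 of its cultures left 4, 4 and 7, against 0.084%, 0.071% and 0.149% of all. Leaving out 1 of the siNT cultures gave 51, 40 and 53, against 1.61%, 0.807% and 1.21% of all. Of the 51 without siNT replicate 1, 36 rose, against 0.949% of all inserts, and 15 fell (0.589%), against 0.659% of all, so the absence of fallers with siZC3H4 did not hold without that culture. Without siNT replicate 2 or 3, 1 fell, against 0.0323% of all each time. All 10 inserts that rose with siZC3H4 also rose with siWDR82, comparisons that share the siNT cultures. Of the risers, 14 of 23 with siWDR82 and 8 of 10 with siZC3H4 had no more than 3 RNA reads summed over siNT, as did 169 of the 2545 inserts. Among the other unspliced inserts, 34 of 63 and 23 of 39 risers did, as did 334 of all 10692.

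Among the risers with more than 3 siNT reads and no overlap between cultures, sequence_09759 had the lowest p with siWDR82. It had 2961, 1956 and 2409 RNA reads over 909, 527 and 430 gDNA reads with siWDR82, against 592, 476 and 503 RNA reads over 1803, 1153 and 1508 gDNA reads with siNT. Its levels of -0.67, -1.04 and -0.64 lay above the siNT levels of -3.51, -3.10 and -3.52 without overlap, a change of 2.39 (SE 0.41, edgeR adjusted p = 0.00712). With siZC3H4 it had levels of -1.87, -1.59 and -1.18, a change of 1.65 that did not pass (SE 0.41, adjusted p = 0.0989). That change did pass with library totals (edgeR adjusted p = 0.0344), DESeq2 (0.0105) and limma (0.00848), over a range of 0.00848 to 0.395 for all alternatives. The siZC3H4 levels lay above those in siNT and below those with siWDR82, and the direct comparison of the siRNAs did not pass (-0.74, SE 0.40, adjusted p = 1.00).

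The next riser by p, sequence_10385, rose with both siRNAs. It had 2247, 4507 and 4957 RNA reads over 903, 615 and 641 gDNA reads with siWDR82, against 469, 657 and 819 over 1605, 1810 and 1198 with siNT. With siZC3H4 it had 3075, 3368 and 4634 RNA reads over 1335, 1278 and 552 gDNA reads. The change was 2.55 with siWDR82 (SE 0.46, edgeR adjusted p = 0.0111) and 2.47 with siZC3H4 (SE 0.46, adjusted p = 0.0172), and the knockdown levels, from -1.06 to -0.06, lay above the siNT levels of -3.67, -3.30 and -2.51. Both inserts had fewer gDNA reads in the siWDR82 cultures than in siNT, whose gDNA libraries are also deeper. Both calls were lost when some single cultures of the knockdown were left out: siWDR82 replicate 1 or 3 for sequence_09759, and for sequence_10385 siWDR82 replicate 2 or 3 and, with siZC3H4, any of the 3. The siWDR82 call of sequence_10385 was also lost with the siNT and siWDR82 libraries alone (edgeR adjusted p = 0.0509, over a range of 3.15e-05 to 0.0859 for all alternatives). Where calls were lost the changes stayed between 2.31 and 2.59.

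Beyond the calls, 649 inserts of the range (25.5%) had all 3 siWDR82 levels above all 3 siNT levels, against 20% of all inserts, and 60 (2.36%) had all below, against 6.87%. With siZC3H4 it was 515 (20.2%) above, against 18.1%, and 96 (3.77%) below, against 5.18%. For siWDR82 the upward share was thus above the background and the downward share below it, and for siZC3H4 both lay nearer to it.

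The knockdowns were also compared directly. For siZC3H4 over siWDR82, edgeR called 0 inserts of the range, against 0% of all inserts. At an unadjusted p under 0.05 there were 60 (2.36%), against 2.03% of all, and DESeq2 called 6, of which 3 were higher and 3 lower, against 0.162% of all. limma on the log ratios called 0, against 0%. The median fitted difference was -0.17 in the range, 0.025 in the others and 0.0057 over all inserts, so the range as a whole was slightly lower with siZC3H4 than with siWDR82. It was -0.12 in the unspliced inserts numbered 5501 to 9000, so the sign was not particular to the range.

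The range was not uniform by number. The profile in blocks of 100 numbers showed 4 stretches, bounded after the values were seen and given without a test. They run from 9001 to 10800 (1523 inserts), 10801 to 11300 (386), 11301 to 11900 (553) and 11901 to 12000 (83). Inserts with neighbouring numbers had little in common: within the range the correlation of siNT level was 0.020 at 1 number apart, 0.049 at 2 and 0.0084 at 5, and that of the siWDR82 change was 0.064, 0.059 and 0.042 (2157 to 2160 pairs, which share libraries).

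The first stretch, 9001 to 10800, changed more with siWDR82 than the others in the range. Its siNT levels were -2.08, -1.73 and -1.78, and its 18 blocks of 100 had mean levels from -2.29 to -1.33. It changed by 0.88 ± 0.092 with siWDR82 and 0.68 ± 0.058 with siZC3H4, and 79.0% of its inserts had a higher mean level with siWDR82 than with siNT, against 66.0% of the other unspliced inserts. At matched siNT level its change exceeded that of the others by 0.18 ± 0.039 with siWDR82 and by 0.055 ± 0.069 with siZC3H4, against an siNT spread of 0.25. The inserts numbered 5501 to 9000 just before it (3010 unspliced) had siNT levels of -1.62, -1.44 and -1.37, changes of 0.73 ± 0.037 and 0.58 ± 0.027, and 0.14 ± 0.026 and 0.0063 ± 0.056 at matched level.

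The second stretch, 10801 to 11300, stood apart in its gDNA. Its median gDNA was 17.1, 15.7 and 15.9 CPM in siWDR82 replicates 1 to 3 and 27.2, 30.5 and 17.9 with siZC3H4, against 20.9, 11.1 and 6.91 with siNT. Its median RNA was 3.61, 4.06 and 4.41 CPM with siWDR82 and 2.95, 3.19 and 2.98 with siZC3H4, against 2.07, 2.23 and 2.36 with siNT. The gDNA thus differed about as much among siNT cultures as between siRNAs, and the RNA was steady within each siRNA. Silent inserts made up 15.3%, 13.7% and 10.9% with siWDR82 and 16.6%, 15.5% and 19.4% with siZC3H4, against 29.3%, 29.0% and 22.3% with siNT.

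The measured response of these 386 inserts depended on whether gDNA was used. The level changed by 0.29 ± 0.29 with siWDR82 and by -0.46 ± 0.23 with siZC3H4 (SD, n = 3). The RNA alone changed by 0.65 ± 0.21 and 0.42 ± 0.15, and the gDNA alone by 0.50 ± 0.092 and 0.91 ± 0.21. One siNT culture set against the others moved the level by -1.50, 0.28 and 1.26, in 2 of 3 cases more than either siRNA did. At matched siNT level these inserts minus the others gave -0.42 ± 0.24 with siWDR82 and -1.20 ± 0.32 with siZC3H4, against an siNT spread of 1.22. Without this stretch, an alternative chosen after the data were seen, the difference in change between the range and the others was 0.38 with siWDR82 and 0.27 with siZC3H4, and at matched siNT level 0.066 and 0.027, which turns the sign for siZC3H4.

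The third stretch, 11301 to 11900, was well represented, low and steady in its culture medians. Its median gDNA was 577, 592 and 630 reads per insert in siNT, close to the 599, 586 and 594 of the other unspliced inserts. Its siNT levels were -2.22, -2.12 and -1.99, lower than the others by 1.28 ± 0.057 at matched gDNA count. Silent inserts were few, at 5.24%, 6.15% and 3.62% in siNT, and at matched gDNA count their share differed from that of the others by 0.028 ± 0.72 points. Of the 553 inserts, 323 (58.4%) lay below the scaled average in siNT, against 26.9% of all inserts fitted, and 1 (0.181%) above, against 12.3%.

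This stretch responded to both siRNAs to a like degree, by 0.62 ± 0.058 with siWDR82 and 0.68 ± 0.072 with siZC3H4, and its gDNA moved by 0.011 ± 0.021 and -0.0077 ± 0.046. In 81.0% and 81.4% of its inserts the mean level was higher with siWDR82 and with siZC3H4 than with siNT. At matched siNT level it changed less than the others with siWDR82, by -0.16 ± 0.063, and by -0.00041 ± 0.029 with siZC3H4, where siNT cultures gave a spread of 0.031. The steady gDNA is that of the stretch's median, and the part of gDNA in its level and response was not tested.

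The last stretch, 11901 to 12000, had 83 inserts with gDNA medians of 370, 244 and 150 reads in siNT. Silent inserts were 7.23%, 12.0% and 7.23% with siWDR82 and 8.43%, 9.64% and 8.43% with siZC3H4, against 24.1%, 19.3% and 21.7% with siNT. Its changes were 0.55 ± 0.11 with siWDR82 and 0.33 ± 0.10 with siZC3H4. At matched siNT level they were -0.30 ± 0.13 and -0.38 ± 0.13 relative to the others, with an siNT spread of 0.62.

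Levels were also compared just inside and just outside the number range. The first 100 numbers inside had a siNT level of -1.65 ± 0.055 and the last 100 before it -1.80 ± 0.11 (SD, n = 3). The last 100 inside had -2.21 ± 0.59 and the first 100 after it -2.13 ± 0.095. With siWDR82 the levels at the upper border lay further apart, with -1.70 ± 0.083 inside and -1.26 ± 0.23 after it. At the gDNA minimum, the 16 inserts just inside it, with a median of 20.9 mean gDNA reads, had 50% ± 12.5 silent in siNT, against 63.3% ± 12.6 for the 20 just outside, with 18.6. Over blocks of 500 numbers, siNT levels ran from -2.14 to -1.72 in the 6 blocks of the range and from -2.28 to 0.38 in the 27 outside it, of which 7 were at or under the highest block of the range. Low levels were therefore not confined to these numbers. Silent inserts were not either. Of the 27 blocks outside, 11 had a siNT silent share at or over the lowest block of the range, 7.55%.

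Both neighbouring sets were also low. The inserts numbered 5501 to 9000, described above, had the same siWDR82 change as the range, 0.73. The 2843 unspliced inserts from 12501 on had siNT levels of -1.54, -1.32 and -1.30 and changes of 0.62 ± 0.052 with siWDR82 and 0.55 ± 0.080 with siZC3H4, against 0.73 ± 0.073 and 0.55 ± 0.058 in the range. The range was lower than both sets in each siNT culture, and the difference was not tested. It was not a step at the borders. Blocks 8001 to 8500 and 8501 to 9000 had siNT levels of -1.84 and -1.74, against -2.14 to -1.72 in the range's blocks. Block 12001 to 12500, which is in neither set, also lay within that span. Higher levels were found further away, such as -1.14 for 5501 to 6000 and -0.60 for 16001 to 16461.

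Replicates within siNT were less alike in the range than among the other unspliced inserts. The median SD of an insert's level between cultures was 0.58 with siWDR82, 0.64 with siZC3H4 and 0.98 with siNT, against 0.50, 0.52 and 0.68 for the other unspliced inserts. These others were not alike. With siNT the value was 0.55 for unspliced inserts numbered 1 to 4000, 0.88 for 5501 to 9000 and 0.77 from 12501 on. By the same measure the third stretch had 0.45 with siWDR82, 0.48 with siZC3H4 and 0.77 with siNT. Its median change, a value of the set and not of single inserts, was steadier. The SD of that median between cultures was 0.058 with siWDR82, 0.072 with siZC3H4 and 0.059 for siNT cultures set against each other. Whether the fewer RNA and gDNA reads of the range's inserts account for the wider siNT spread was not tested.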

How the data were processed

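INSERT-seq was run on RNA and gDNA of 9 mouse embryonic stem cell cultures, 18 libraries in all. The authors deposited raw read counts per insert, with no normalization, in one table for RNA and another for gDNA. The header names fit the value columns, and columns were taken by those names. The submitters' processing notes list build mm10, Bowtie2 2.3.4.3, cutadapt 1.14, SAMtools and STAR, and do not say what each was used for. How reads of near-identical inserts were placed is not given, and could move counts between such inserts.

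Unspliced and spliced reads were added up to give an insert's RNA, and spike-ins were left out of library totals. The 15484 inserts that averaged 20 or more gDNA reads were fitted with edgeR 4.0.16 (R 4.3.3), quasi-likelihood, 6 group means, TMM factors within RNA and within gDNA, and Benjamini-Hochberg at 0.05 over all of them. No RNA minimum was set, so no insert entered through a group where its RNA is high. Of the 2545 inserts, 40 had a mean under 5 RNA reads and 8 had 0 in all 9 RNA libraries. Levels per culture used library totals and 0.5 CPM added. Medians of the range against the others are described with mean ± SD over 3 cultures and no test, because the number range, its members and the sets beside it were chosen with earlier results of these data known.

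Named inserts were the 2 risers and 2 fallers of lowest p with siWDR82 among calls with more than 3 siNT RNA reads and no overlap of cultures (9 rose and 0 fell by that rule), and the inserts with the highest level, the median level and most gDNA at 0 siNT RNA reads. A further riser with siZC3H4 is counted and not named. RNA and gDNA of one culture deviated together (r 0.288 to 0.468 across inserts in 9 of 9 cultures). They were taken as pairs, from the labels' shared siRNA and number, in levels, log ratios and the fits with culture as a block. The main edgeR fit used group means without a term for culture, so its counts and p-values do not use the pairing. Levels of same-numbered cultures across siRNAs correlated at -0.0072 to 0.139 and were not taken as pairs. Replicates were not one library repeated (chi-square over degrees of freedom 32.5 or more in each pair). Alternatives covered normalization, DESeq2 1.42.0, limma 3.58.1 on log ratios, filters, spike-in scaling, blocks, which libraries were fitted, bins, pseudocount, thinning and each culture left out. Fits and the matched comparison were run on simulated data. In the simulation of the matched comparison, range and others had the same distribution of siNT level and the same noise. It therefore could not show whether matching removes a difference in level.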

Additional observations from a re-analysis of the deposited data

Results flagged for a closer look

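The median level of unspliced inserts numbered 10801 to 11300 moved up with siWDR82 and down with siZC3H4, by less than siNT cultures differed. Their median level changed by 0.079, 0.18 and 0.62 in the siWDR82 cultures and by -0.56, -0.61 and -0.20 in the siZC3H4 cultures, each against the siNT mean, so siZC3H4 minus siWDR82 was -0.75. One siNT culture set against the others moved the same median by -1.50, 0.28 and 1.26. The difference of the medians was not tested, and both changes share the siNT cultures. Per insert, edgeR (adjusted p under 0.05) called 0 of the 386 for siZC3H4 over siWDR82, against 0% of all inserts. For siZC3H4 over siNT, 3 rose (0.777%), against 0.323% of all, and 0 fell, against 0.0258%. RNA alone moved up with both, by 0.65 and 0.42, and gDNA by 0.50 and 0.91. The part of gDNA in the split was not tested beyond these values.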

How the results depend on the processing

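The lower siNT level of the range kept its direction under all 7 settings tried and each siNT culture left out (-1.35 to -1.01). Calls among the range's inserts moved with the tool. Each count is followed by the percent of the range's inserts and of all inserts called. With siWDR82 they numbered 23 (0.904% and 0.691%), against 87 with DESeq2 (3.43% and 3.33%), 215 with limma (8.45% and 6.79%), 13 with siNT and siWDR82 libraries alone (0.511% and 0.271%), 130 with spike-in scaling (5.11% and 4.11%) and 53 with culture as a replicate block (2.08% and 3.11%). With siZC3H4 they numbered 10 (0.393% and 0.349%), against 67 with DESeq2 (2.64% and 1.90%), 125 with limma (4.91% and 3.54%), 20 with library totals (0.786% and 0.581%) and 22 with spike-in scaling (0.864% and 0.568%). The counts thus moved over all inserts too. In siNT, limma called 1805 (70.9% and 59.3%) in place of 1192 (46.8% and 39.1%), and for siZC3H4 against siWDR82 DESeq2 called 6 in place of 0. With a replicate block by number, whose cultures are not pairs, calls were 20 with siWDR82 (0.786% and 0.517%), 8 with siZC3H4 (0.314% and 0.187%), 824 in siNT (32.4% and 26.5%) and 0 directly. The culture block gave 11 with siZC3H4 (0.432% and 0.433%), 1405 in siNT (55.2% and 48.9%) and 0 directly. Leaving out each culture gave 4 to 70 calls with siWDR82 (0.084% to 1.65% of all inserts), 4 to 53 with siZC3H4 (0.071% to 1.61%), 976 to 1156 in siNT (31.4% to 37.7%) and 0 directly. Leaving out any siWDR82 or siNT culture moved the siWDR82 count by over 1.5 times, and leaving out any siNT culture or siZC3H4 replicate 1 or 2 did so for siZC3H4.

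The excess of silent inserts in siNT was 5.47 points with 50 gDNA reads required, 3.22 at matched gDNA, 10.1 with at most 3 reads taken as silent, 4.36 without the second stretch and 4.19 with 10 gDNA reads in every library, and 6.37 to 7.28 with a culture left out. The silent share with siWDR82 minus that with siNT was -6.67, -13.1, -6.11 and -5.59 under the same settings other than matching, and -8.59 with RNA libraries thinned to the smallest RNA total (gDNA libraries kept their 4584881 to 11510602 reads). It was -12.4 with siZC3H4 at 3 reads, -5.31 with 10 gDNA reads in every library and -7.95 when thinned. With a culture left out they were -8.20 to -6.51 and -7.82 to -6.13. The difference in change was 0.21 for siWDR82 and 0.058 for siZC3H4 with 2 CPM added, 0.38 and 0.27 without the second stretch, and 0.40 and 0.33 for RNA alone, and for siZC3H4 0.079 at matched gDNA and 0.23 with 10 gDNA reads in every library. Leaving out a culture gave 0.22 to 0.40 and 0.050 to 0.22, and same-numbered differences as a replicate block gave 0.31 and 0.13. At matched siNT level, without the second stretch the differences were 0.066 for siWDR82 and 0.027 for siZC3H4, where the sign for siZC3H4 is turned. With a culture left out they were -0.096 to 0.093 and -0.23 to -0.031. Settings without the second stretch, with 10 gDNA reads in every library and with RNA alone were chosen after the data were seen. The causes were not tested.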
